A study of Mus musculus with 10 samples.

Results

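The colony-stimulating factor (CSF) genes examined here are the ligands Csf1, Csf2 and Csf3 and the receptor chains Csf1r, Csf2ra, Csf2rb, Csf2rb2 and Csf3r. They were found as the 14 array probes, printed on 32 spots, that carry 1 of these 8 gene names. Of the 13677 genes with a probe above the detection filter, 5 were CSF genes: Csf1, Csf1r, Csf2rb, Csf2rb2 and Csf3r. The group was put together with its processed signals and detection calls in mimic and scramble samples already known. The difference between these groups is therefore a description for the 8 genes, and no p-value is given for it.

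The samples are C2C12 cells, myoblasts of a mouse line, whose RNA was read on a 1-colour Agilent oligonucleotide array. The mimic group received a mirVana mimic of miR-142-3p and the scramble group a scrambled sequence, each at 150 nM with a Lipofectamine reagent, and RNA was taken after 72 hours. Transfection efficiency was given as about 60%, so a sample can mix cells that took up the RNA and cells that did not. How far the samples did so was not tested, and no untransfected group was used here. The titles number 6 mimic and 4 scramble replicates of transfected cells, and whether these are separate transfections is not known here. The word re-analysis, with no explanation in the sources used here, stands in all 4 scramble titles and in no mimic title. Per the file headers, the 10 scans are 5 arrays of 1 slide, every one of them scanned on 2 days. Mimic array 1 holds replicates 1 and 4, mimic array 2 replicates 2 and 5, and mimic array 3 replicates 3 and 6. Scramble array 1 holds replicates 1 and 3, and scramble array 2 replicates 2 and 4. Scans of an array were averaged, so n is 3 mimic arrays and 2 scramble arrays. The headers tie no array to a culture, and a p-value here covers only array-to-array spread, part of which can be technical. Each scan had between 25.4% and 34.6% of its spots well above background and at most 1 saturated spot.

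Csf1 (M-CSF) binds Csf1r, a receptor tyrosine kinase, and sustains monocytes, macrophages and osteoclasts. Csf2 (GM-CSF) binds the chain encoded by Csf2ra, which signals only together with a beta chain, and Csf3 (G-CSF) binds Csf3r and drives the production of neutrophils. Csf2rb encodes the common beta chain of the receptors for GM-CSF, interleukin 3 and interleukin 5. Mice also have Csf2rb2, a close copy whose product serves interleukin 3 alone, and in the RefSeq assembly GRCm38.p6 the pair lie side by side on chromosome 15 with 0 annotated genes between them. Receptor chains of this family are characteristic of blood cells, while Csf1 is also made by fibroblasts and other mesenchymal cells.

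The transfected RNA mimics mature miR-142-3p, shown because every contrast here rests on it, as RefSeq lists it at chr11:87756903-87756925 on the plus strand of GRCm38.p6. Capitals mark the seed, bases 2 to 8.
miR-142a-3p: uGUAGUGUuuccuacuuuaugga
The 7 bases that pair with this seed, ACACTAC, occur in 144 of the 55681 probes of the array (0.259%) and in 0 of the 14 CSF probes. A probe covers 60 bases of a transcript, so this describes the probes and not the transcripts.

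In the mimic group the beta chains Csf2rb and Csf2rb2 and the ligand Csf1 read higher than in the scramble group. With the scanner software's background correction, Csf2rb was at least 6.72-fold and Csf2rb2 at least 1.90-fold higher, and the main Csf1 probe 1.65-fold higher. With normexp, another background correction, the log2 differences of Csf2rb and Csf2rb2 were 1.88 and 0.83, both smaller than these bounds. Csf3r differed by 0.18 on the log2 scale, and the Csf1r probe detected on all 10 scans by 0.17. Probes of other gene names closely match the Csf3r probe, and the source of its signal was not tested. Csf2, Csf3 and Csf2ra stayed below the well-above-background call on all 10 scans. In 4 of the 5 measurable genes, every mimic array lay above every scramble array, which held for 25.9% of all genes, and 0 of the 5 had every mimic array below, which held for 16.7% (42.6% in either direction). These counts use 1 probe per gene. Another kept Csf1r probe, A_55_P2025073, had every mimic array below both scramble arrays, with a log2 difference of −0.67. Csf2rb and Csf2rb2 passed the detection filter through the mimic scans alone. Because of this, and because the genes were chosen on this contrast, nothing is read from these shares. Signals below are log2 values relative to the 75th percentile of the scan; on this scale the median gene differed by 0.09 between the groups. Taking the percentile over only the probes detected well above background on every scan put that median at −0.04, and centring on the array median put it at 0.18.

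**Figure D1:**
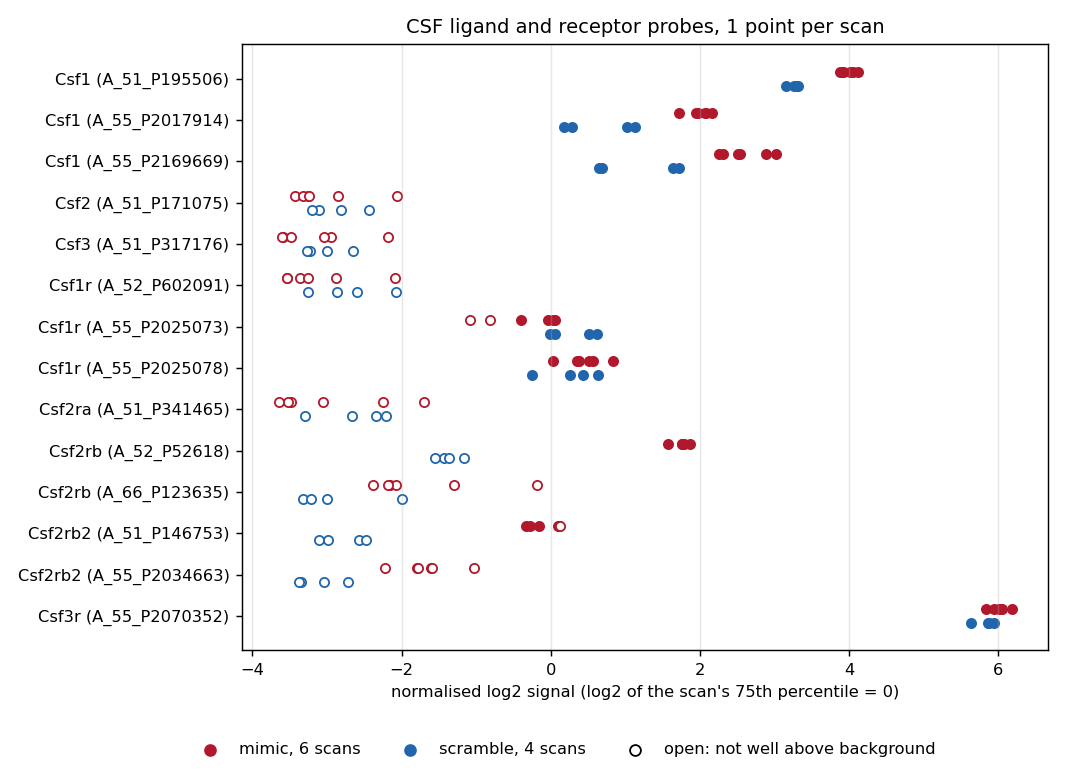
Normalised log2 signal (x axis, 0 at the 75th percentile of the scan) of the 14 CSF probes, with 1 point per scan for 6 mimic scans (red) and 4 scramble scans (blue); open points were not well above background. The Csf2rb probe A_52_P52618 is filled for all 6 mimic scans and open for all 4 scramble scans, and the 3 Csf1 probes are filled throughout.

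Csf2rb was measured best by probe A_52_P52618, at chr15:78181168-78181227 of mm9 on the plus strand per the array annotation, which states no exon or UTR. Its normalised log2 signal was 1.76, 1.81 and 1.67 on mimic arrays 1, 2 and 3, and −1.30 and −1.45 on scramble arrays 1 and 2. The groups lay far apart, with 1.75 ± 0.07 (SD, n = 3) for the mimic and −1.38 ± 0.11 (SD, n = 2) for the scramble. The processed signal ran from 429 to 601 (median 546) over the mimic scans and from 52.2 to 62.0 (median 56.9) over the scramble scans. The probe passed the well-above-background call on 6 of 6 mimic and 0 of 4 scramble scans, so the measured log2 difference of 3.13 is not given as a fold. The bound of at least 6.72-fold sets the mimic mean against, for each scramble scan, the higher of the probe's own signal and the lowest signal that any probe had while well above background; the same rule gives every "at least" below. By the laxer flag of a positive and significant signal, Csf2rb was detected on all 4 scramble scans as well. Leaving out 1 array or 1 scan kept the log2 difference between 3.05 and 3.20. Normexp background correction, which adds an offset of 50 to every signal, lowered it to 1.88, a smaller difference than that bound.

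The second Csf2rb probe, A_66_P123635 at chr15:78179504-78179563 of mm9, stayed below the well-above-background call on every scan. It read −2.27, −0.74 and −2.13 on the mimic arrays and −3.16 and −2.60 on the scramble arrays. The mimic arrays were the higher ones, with mimic array 2 standing above the other 2. Its positive and significant flag was set on 6 of 6 mimic scans and 2 of 4 scramble scans.

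Csf2rb2 was measured best by probe A_51_P146753, at chr15:78113126-78113185 of mm9 on the minus strand and annotated to transcript variant 1. Its normalised log2 signal was −0.09, −0.02 and −0.11 on mimic arrays 1, 2 and 3 and −2.78 and −2.79 on scramble arrays 1 and 2. The array averages gave −0.07 ± 0.05 (SD, n = 3) and −2.79 ± 0.01 (SD, n = 2), and the groups did not overlap. The scramble scans spread more than this SD. Replicates 1 and 3, of scramble array 1, read −2.57 and −2.99, and replicates 2 and 4, of scramble array 2, read −2.48 and −3.11. The processed signal ran from 113 to 187 over the mimic scans and from 15.6 to 27.8 over the scramble scans. It passed the call on 5 of 6 mimic scans (all but replicate 2) and on 0 of 4 scramble scans, so only the bound of at least 1.90-fold is given beside the measured log2 difference of 2.71. Normexp background correction moved that difference to 0.83, which is smaller than that bound. The authors' deposited values list the probe as empty on 3 of the 4 scramble replicates.

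The second Csf2rb2 probe, A_55_P2034663 at chr15:78114097-78114156 of mm9, stayed below the well-above-background call on every scan. It read −1.69, −1.31 and −2.01 on the mimic arrays and −3.20 and −3.04 on the scramble arrays. All mimic arrays were again the higher ones. The positive and significant flag was set on 6 of 6 mimic scans and 0 of 4 scramble scans.

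Csf2rb and Csf2rb2 are near copies, and their best probes resemble each other, so the stretches are shown to let the likeness be judged. Within a window of 30 bases, 27 are identical and the 3 that differ are in capitals; bases 30 to 59 of the Csf2rb probe align with bases 12 to 41 of the Csf2rb2 probe.
Csf2rb probe A_52_P52618: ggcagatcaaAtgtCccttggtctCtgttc
Csf2rb2 probe A_51_P146753: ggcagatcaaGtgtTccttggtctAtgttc
No other probe of the array matched either sequence in more than 22 of 30 bases at any ungapped offset searched, and the longest run the pair share without a difference is 10 bases. How far each probe captures the other gene's transcript was not tested, and the pair are reported as uncertain for that reason. The second probes of both genes shared 14 of 30 bases at best. Neither second probe passed the detection call on any scan, and the value of the Csf2rb one was unsteady: its measured log2 difference of 1.17 was 0.68 without mimic array 2 and 0.37 with normexp.

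Csf1 was read by 3 probes, all well above background on all 10 scans. Probe A_51_P195506 at chr3:107544333-107544392 of mm9, on the minus strand and annotated to transcript variant 1, is printed on 10 spots. Its normalised log2 signal was 3.96, 4.08 and 3.89 on mimic arrays 1, 2 and 3, and 3.23 and 3.27 on scramble arrays 1 and 2. Every mimic array exceeded both scramble arrays, and the difference of 0.72 corresponds to 1.65-fold. The group means were 3.98 ± 0.10 (SD, n = 3) and 3.25 ± 0.03 (SD, n = 2). The difference stayed between 0.59 and 0.81 over all 27 alternatives.

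The repeated spots show the printing and scanning error of this probe. On each scan the processed signal of its spots varied with a coefficient of variation from 3.68% to 9.45%. The median spot lay between 2139 and 2996 on the mimic scans and between 1356 and 1462 on the scramble scans. On mimic replicate 5, 1 spot read 4475 and was marked as an outlier, and it was left out. The lowest unmarked mimic spot, 1881, lay above the highest scramble spot, 1566.

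**Figure D2:**
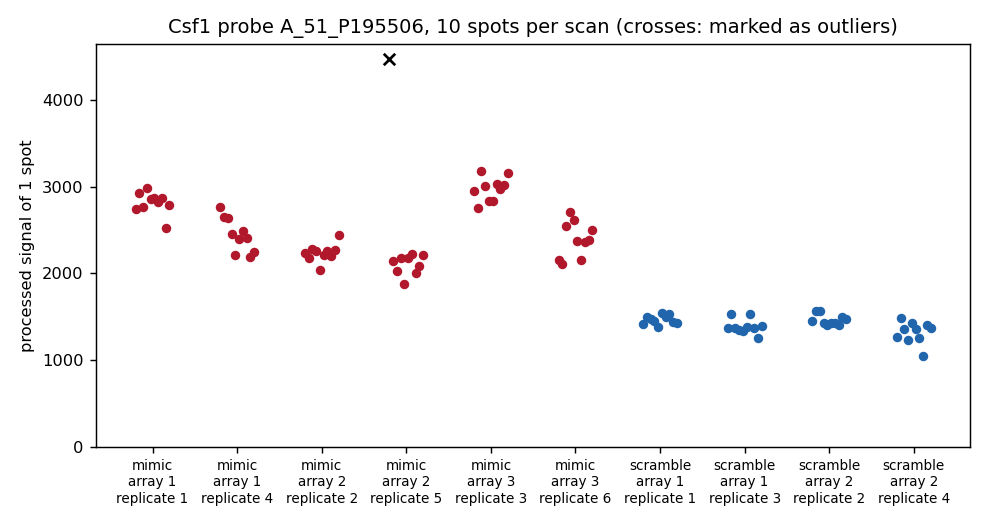
Processed signal (y axis, linear) of the 10 spots of Csf1 probe A_51_P195506 on each scan (x axis), mimic in red and scramble in blue, with crosses for spots marked as outliers. The unmarked spots of the mimic scans start at 1881, above the highest scramble spot at 1566.

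The other 2 Csf1 probes are annotated to transcript variant 3, lie at chr3:107548550-107548609 and chr3:107548521-107548580 of mm9, and overlap by 31 bases, so they are not independent readings. The first, A_55_P2017914, read 1.90, 2.11 and 1.97 on the mimic arrays and 1.08 and 0.23 on the scramble arrays. The second, A_55_P2169669, read 2.39, 2.95 and 2.41 on the mimic arrays and 1.68 and 0.67 on the scramble arrays. Both probes were higher on every mimic array than on either scramble array, and scramble array 2 was the low one on both. The log2 differences were 1.34 and 1.41. Without scramble array 2 they were 0.91 and 0.91, and without scramble array 1 they were 1.76 and 1.92, so the size of the variant 3 difference depends on which scramble array is used while that of probe A_51_P195506 moved only from 0.72 to 0.75 and 0.70.

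Csf1r, the receptor of Csf1, gave probes that disagreed. Probe A_55_P2025078 was well above background on all 10 scans and read 0.36, 0.27 and 0.70 on the mimic arrays against 0.0037 and 0.54 on the scramble arrays. These values overlap, and the difference of 0.17 became −0.09 without scramble array 1 and 0.44 without scramble array 2. Probe A_55_P2025073 read −0.18, −0.95 and 0.0061 on the mimic arrays against 0.023 and 0.57 on the scramble arrays. Here the scramble arrays were the higher ones, by 0.67 on the log2 scale, with detection on 4 of 6 mimic and 4 of 4 scramble scans; mimic array 2, on which the probe was not well above background, was the lowest. Without mimic array 2 the difference became −0.38. The third probe, A_52_P602091, stayed below the well-above-background call on every scan and its groups overlapped. The probes of Csf1r thus give no common direction.

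Csf3r, the G-CSF receptor, had the single probe A_55_P2070352 at chr4:125721478-125721537 of mm9, annotated to transcript variant 1. It read 5.94, 5.97 and 6.10 on the mimic arrays and 5.75 and 5.91 on the scramble arrays. The arrays did not overlap, but mimic array 1 and scramble array 2 were only 0.03 apart, and the difference of 0.18 shrank to 0.04 when the percentile came from only the probes detected on every scan. The processed signal ran from 7780 to 13210 on the mimic scans and from 6916 to 9621 on the scramble scans. The probe carries a stretch that other genes' probes carry too, shown here because it bears on what the signal counts; bases 31 to 60 are these.
Csf3r probe A_55_P2070352: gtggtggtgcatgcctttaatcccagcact
This window is found whole in 1 other probe of the array, and 3 probes of other gene names match the Csf3r probe in at least 27 of 30 bases. All 3 were well above background on all 10 scans, with log2 differences from 0.07 to 0.25. No other CSF probe except the Csf2rb and Csf2rb2 pair had such a match. Whether the Csf3r signal comes from Csf3r transcripts was not tested, so its height is not read as the level of Csf3r.

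The remaining CSF genes stayed below the well-above-background call. Csf2 (GM-CSF), read by probe A_51_P171075 on chromosome 11 with 10 spots, gave −3.29, −2.46 and −3.34 on the mimic arrays and −2.96 and −2.82 on the scramble arrays. Csf3 (G-CSF), read by probe A_51_P317176 at chr11:98564614-98564673 of mm9, gave −3.59, −2.56 and −3.26 against −3.11 and −2.95. Csf2ra, the alpha chain of the GM-CSF receptor, read by probe A_51_P341465 at chr19:61300336-61300395 of mm9, gave −2.59, −2.65 and −3.58 against −2.28 and −2.98. In all 3 genes the groups overlapped and no scan was well above background, so no direction or fold is given. By the well-above-background call, the beta chains were thus detected in mimic samples in which neither Csf2 nor the alpha chain Csf2ra was. The laxer flag of a positive and significant signal was set for Csf2ra on 1 of 6 mimic and 2 of 4 scramble scans. For Csf3 it was set on 1 mimic scan, and for Csf2 on no scan.

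The 10 Csf2 spots include one that decides how the gene reads. On mimic array 1, the same spot read 8922 in replicate 1 and 8671 in replicate 4, the scans of that array, while the highest unmarked spot of those scans read 35.6 and 21.8. The scanner software marked it as an outlier on both scans, and it was left out. The authors' deposited values list Csf2 at 3934 for mimic replicate 1 and 3297 for mimic replicate 4, at 22.4 and 29.6 for mimic replicates 3 and 6, and at 17.2, 56.3 and 25.1 for scramble replicates 1, 2 and 3. The other 3 replicates are empty for this probe. On those deposited values the log2 difference is 3.15, against −0.14 with the marked spots left out and 0.17 with the marked spots kept in an average of log2 values.

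**Figure D3:**
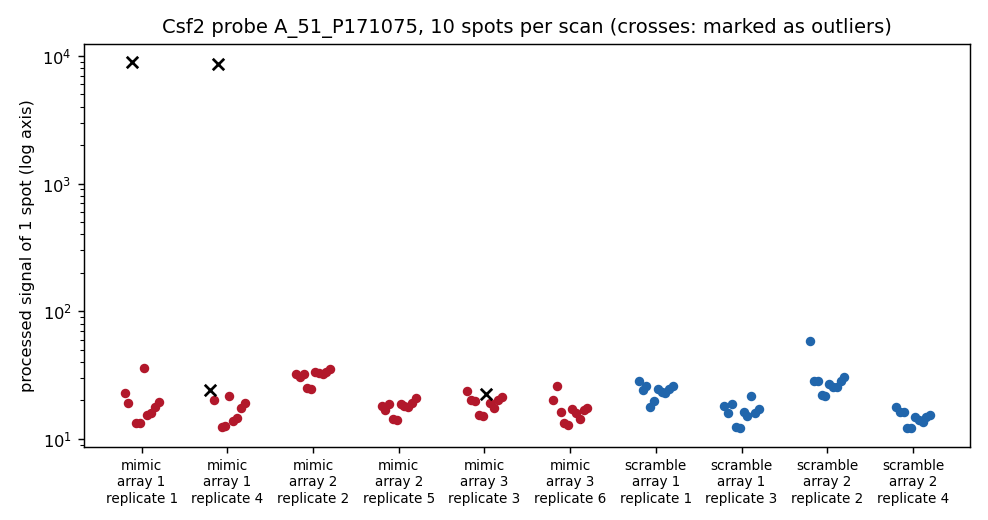
Processed signal (y axis, log scale) of the 10 spots of Csf2 probe A_51_P171075 on each scan (x axis), mimic in red and scramble in blue, with crosses for spots marked as outliers. The crosses at 8922 and 8671 are the same spot of mimic array 1 on both scans, and no scramble spot exceeds 57.9.

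Across processing choices, the sign of the measured difference held in all 27 alternatives for the 3 Csf1 probes, for Csf2rb A_52_P52618 and A_66_P123635, for Csf2rb2 A_51_P146753, for Csf1r A_55_P2025073 and for Csf3r, and in all 26 for Csf2rb2 A_55_P2034663. A held sign says nothing of size or detection: Csf3r came down to 0.04, and Csf2rb A_66_P123635 and Csf2rb2 A_55_P2034663 did not pass the detection call on any scan. Csf1r A_55_P2025078 changed sign in 1 of 27 and A_52_P602091 in 1 of 26, and Csf2, Csf2ra and Csf3 changed sign in 6 of 27, 4 of 27 and 5 of 26. Many of these alternatives share the same arrays and the same 1 slide.

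**Figure D4:**
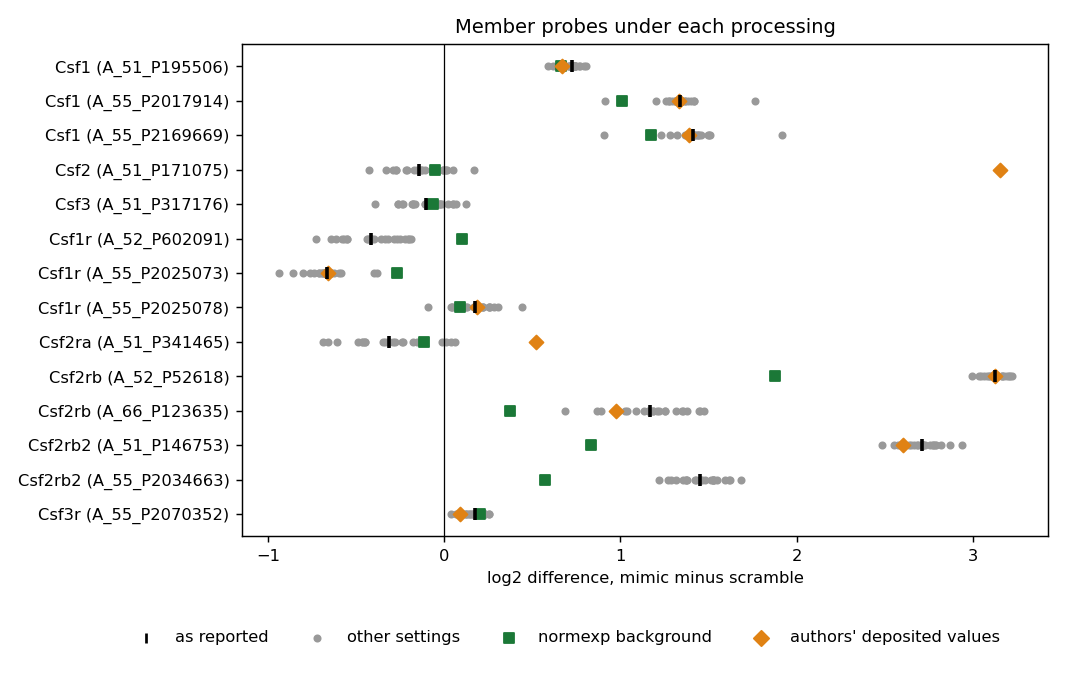
Log2 difference, mimic minus scramble (x axis), of the 14 CSF probes as reported (black bar), under other settings (grey), under normexp background correction (green square) and from the authors' deposited values (orange diamond). Csf2rb A_52_P52618 moves from 3.13 to 1.88 under normexp, and Csf2 stands at 3.15 only on the deposited values.

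By normalised log2 signal over the 10 scans, which are 5 arrays scanned on 2 days and follow the mimic and scramble groups, the genes most like Csf2rb were Hdc (histidine decarboxylase; Pearson r = 0.998), Cd68 (a lysosomal protein of macrophages; r = 0.998) and Ccl8 (a chemokine; r = 0.998). For Csf2rb2 they were an unnamed transcript (r = 0.997), Gpnmb (a transmembrane glycoprotein of macrophages and melanocytes; r = 0.996) and Creb3l3 (a transcription factor; r = 0.994). For Csf1 probe A_51_P195506 they were Grem1 (an antagonist of bone morphogenetic proteins), Plscr1 and Metrnl, at r = 0.996, 0.995 and 0.994. For the variant 3 probe A_55_P2017914 they were Bub1, Jade2 and Plscr2 (r = 0.997, 0.995 and 0.995), and for A_55_P2169669 Trip13, an unnamed noncoding locus and Sdcbp (r = 0.996, 0.995 and 0.995). Such values are common where groups differ: 818 genes reached r above 0.9 with Csf2rb and 743 with Csf2rb2. Csf1r A_55_P2025073 was closest to Axin1 (r = 0.980), Nsdhl (r = 0.974) and Ptprd (r = 0.974), and Csf1r A_55_P2025078 reached at most r = 0.861, with Manba. Csf3r was closest to Mta3 (r = 0.978), Paics (r = 0.927) and Commd1 (r = 0.915). Csf2rb and Csf2rb2 gave r = 0.982 with each other.

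The genes around the CSF receptors were tested in the all-gene limma fit in 4 lists. Of 45 tested in these lists, 5 rose, 1 fell and 39 did not pass. That is 11.1% higher, against 5.86% of all 13677 genes, 2.22% lower, against 3.88%, and 13.3% in either direction, against 9.74%; nothing particular to the lists is read from these shares, and the list counts below stand against the same background. The fall was Fyn, a Src-family kinase, and the clearest rise was Cebpd, a C/EBP transcription factor. Pik3cb, 1 of the 5 rises, passed the detection filter through the mimic scans alone. With 1 mimic array left out in turn, 1 gene, Cebpd, was called higher and 1, Fyn, lower each time. Without scramble array 1 the counts were 13 higher and 7 lower, and without scramble array 2 they were 3 and 1; these fits assume that the lone remaining scramble array varies like the others. With no filter on dim probes they were 0 higher and 1 lower.

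Among other ligands and chains that share a chain or a receptor with a CSF gene, 2 of 5 were measurable. Il34, the other ligand of Csf1r, read 0.73, 1.02 and 0.80 on the mimic arrays and 0.04 and 0.10 on the scramble arrays. It rose by 0.78 ± 0.20 (SE; limma adjusted p = 0.0459), higher on 3 of 3 mimic arrays. The call was lost in 19 of 30 alternatives, including each fit without 1 mimic array (0.70 to 0.84, adjusted p 0.124 to 0.156), the fit without scramble array 2 (0.81, adjusted p = 0.0779) and normexp (0.52, adjusted p = 0.0777). Il3ra, the interleukin 3 receptor alpha chain, differed by −0.20 (limma adjusted p = 0.56). Il3, Il5 and Il5ra, the other cytokines and chain that use the common beta chain, stayed below the well-above-background call on every scan.

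Of 29 kinases and adaptors that transmit CSF receptor signals, 18 were measurable, of which 1 rose, 1 fell and 16 did not pass. The median log2 difference was −0.23, against 0.09 for all genes. Fyn read −0.31, −0.12 and −0.03 on the mimic arrays and 1.39 and 1.64 on the scramble arrays. It fell by 1.66 on the log2 scale (SE 0.21; limma adjusted p = 0.0015), and the call held in all 29 alternatives, with a difference of −1.07 under normexp. Pik3cb, the beta catalytic subunit of phosphoinositide 3-kinase, was well above background on 4 of 6 mimic and 0 of 4 scramble scans. It was at least 1.18-fold higher (limma adjusted p = 0.0300), but it passed the detection filter through the mimic scans alone, so nothing is read from its call. That call was lost in 9 of 29 alternatives, with adjusted p of 0.0648 to 0.11 without 1 mimic array and 0.0722 without scramble array 2, and with normexp its measured difference was 0.41 (adjusted p = 0.21). Jak2, the kinase bound to the beta chain, differed by 1.10 (limma adjusted p = 0.0698), and Stat5a by −0.47 (adjusted p = 0.181); neither passed. Lyn, a Src-family kinase of blood cells, was among the 10 below the well-above-background call on every scan.

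Of 16 negative regulators and target genes of these receptors, 9 were measurable, of which 2 rose, 0 fell and 7 did not pass, with a median of 0.29. Socs3, an inhibitor induced by cytokine receptors and a brake on Csf3r, read 4.36, 4.72 and 4.69 on the mimic arrays against 3.80 and 3.19 on the scramble arrays. It rose by 1.09 ± 0.25 (SE; limma adjusted p = 0.0306). Dok1, an adaptor that dampens tyrosine kinase signals, read 2.56 and 2.63 on mimic arrays 1 and 3 against 1.44 and 1.73 on the scramble arrays, and mimic array 2 had no usable spot and was dropped from its fit. It rose by 1.01 ± 0.23 (SE; limma adjusted p = 0.0383), but the call was lost in 12 of 30 alternatives. With marked spots kept the Dok1 difference was 3.46 (adjusted p = 0.331), and on the authors' deposited values it was 3.11 (adjusted p = 0.311). Without 1 mimic array the Socs3 difference was 1.03 to 1.21 and no longer passed (adjusted p 0.0669 to 0.11). The Dok1 difference was then 0.97 to 1.05 and did not pass either (adjusted p 0.0659 to 0.193), where leaving out mimic array 1 or 3 leaves it 1 mimic array, assumed to vary like the others, and Socs3 had an adjusted p of 0.105 without scramble array 2.

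Of 23 transcription factors known to act on CSF or CSF receptor genes, 16 were measurable, of which 1 rose, 0 fell and 15 did not pass, with a median of 0.43. Cebpd read 3.49, 3.83 and 3.68 on the mimic arrays and 2.39 and 1.90 on the scramble arrays. It rose by 1.52 ± 0.23 (SE; limma adjusted p = 0.0046), 2.87-fold, and the call was lost only with no filter on dim probes (adjusted p = 0.0746). Spi1 (PU.1), Irf8 and Cebpe, factors of the myeloid lineage, stayed below the well-above-background call on every scan. For comparison, of 18 other haematopoietic growth factors and cytokine receptor chains 9 were measurable and 3 rose, with a median of 0.14. Flt3l, a dendritic cell growth factor, rose by 0.95 ± 0.19 (SE; limma adjusted p = 0.0184). Kitl (stem cell factor) rose by 1.18 ± 0.24 (SE; limma adjusted p = 0.0196), and Il4ra by 1.30 ± 0.27 (SE; limma adjusted p = 0.0208). None of these 3 calls held without 1 mimic array (adjusted p 0.0539 to 0.0882), and without scramble array 2 those of Kitl (adjusted p = 0.0661) and Il4ra (adjusted p = 0.0535) were lost as well. Normexp gave 0.68 for Il4ra (adjusted p = 0.0622) and 0.62 for Flt3l (adjusted p = 0.0439).

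**Figure D5:**
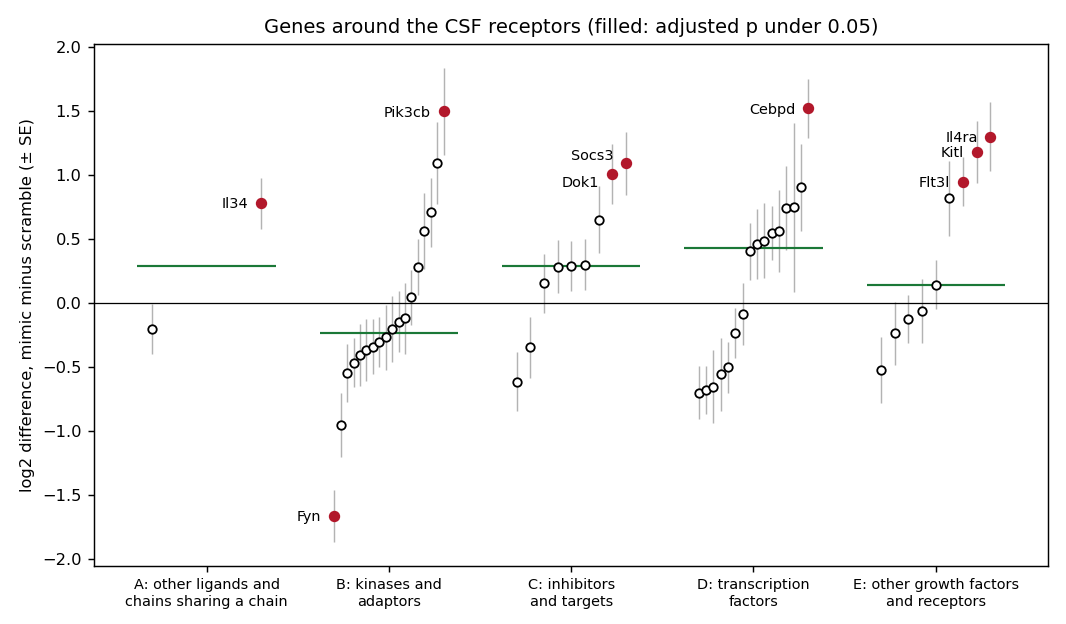
Log2 difference, mimic minus scramble, with its SE (y axis) for each measurable gene of 5 lists (x axis), with 2, 18, 9, 16 and 9 genes; filled points had an adjusted p under 0.05 and green lines are list medians. Fyn stands lowest at −1.66 and Cebpd highest at 1.52; the Pik3cb point is a measured difference with the scramble scans below the detection call.

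Receptor chains such as Csf2rb belong to blood cells, so blood cell markers are given beside them. Of 19 leukocyte markers, 14 stayed below the well-above-background call on every scan, Ptprc (CD45), Tyrobp, Adgre1, Lyz2 and Laptm5 among them. Of the other 5, 2 rose: Cd68 by 4.83 ± 0.20 (SE; limma adjusted p = 1.86e-05), and Cd14, a co-receptor for lipopolysaccharide, by 1.54 ± 0.21 (SE; limma adjusted p = 0.0024). Itgam, Fcer1g and Elane did not pass. The summed linear signal of the 19, in units of the 75th percentile of the scan, ran from 55.6 to 60.8 on the mimic arrays and from 21.4 to 21.7 on the scramble arrays, and without Cd68 from 25.6 to 27.5 against 20.3 to 20.6. Of 10 myoblast markers 7 were measurable, 6 fell and 0 rose. Myog, a muscle transcription factor, fell by 7.08 on the log2 scale (SE 0.23; limma adjusted p = 1.14e-05), Cdh15 by 1.98 (SE 0.19; adjusted p = 0.000371) and Myod1 by 3.25 (SE 0.28; adjusted p = 0.000256). The summed signal of the 10 ran from 244 to 262 on the mimic arrays and from 547 to 624 on the scramble arrays. In a bulk sample, fewer cells carrying a transcript and less of it per cell cannot be told apart, and the part of these shifts in the CSF values was not tested.

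Csf2rb2 and Csf1 both read higher with the mimic, and the 250 bases before their RefSeq starts (GRCm38.p6) are shown. Of the transcription factors listed above only Cebpd was called, and no letters for C/EBP factors were searched. RefSeq promoters were matched for 5 of the 8 genes: Csf1, Csf2, Csf2ra, Csf2rb2 and Csf3r. Searched on both strands, and with no overlap among matches in the 5, were GGACTTTCC (NF-kB), TGANTCA (AP-1), GAGGAAGT (PU.1) and TTCNNNGAA (STAT). Capitals mark matches. The Csf1 promoter is at chr3:107760470-107760719 and the Csf2rb2 promoter at chr15:78305722-78305971, both on the minus strand.
Csf1 promoter: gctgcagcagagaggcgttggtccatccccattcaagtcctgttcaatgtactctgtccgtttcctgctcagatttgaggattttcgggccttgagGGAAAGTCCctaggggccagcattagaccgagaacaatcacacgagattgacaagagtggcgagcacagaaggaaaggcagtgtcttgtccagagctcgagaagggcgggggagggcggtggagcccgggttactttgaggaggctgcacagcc
Csf2rb2 promoter: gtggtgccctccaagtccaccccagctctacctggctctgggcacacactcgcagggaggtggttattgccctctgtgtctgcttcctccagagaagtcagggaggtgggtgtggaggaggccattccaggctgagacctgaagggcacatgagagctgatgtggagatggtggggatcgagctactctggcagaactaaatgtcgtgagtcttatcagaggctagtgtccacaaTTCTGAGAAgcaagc
The Csf1 window holds 1 match to the NF-kB letters, on the strand opposite to the gene, which 0.283% of all 32851 promoter windows of that length hold. The Csf2rb2 window holds 1 match to the STAT letters, which 7.02% hold. The AP-1 letters, found in 6.75% of windows, and the PU.1 letters, found in 2.44%, have no match in any of the 5. These are matches of letters and not measured sites.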

How the data were processed

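The values used are spot intensities on a linear scale, deposited by the authors as scanner files; per the file headers they come from Feature Extraction 12.0.0.7 (10.7.3.1 in the submitters' processing notes). The software had already corrected background and spatial trend. The deposited series matrix also holds linear intensities, which tracked the log2 scanner signal at r from 0.996 to 1.00, with column medians from 175.5 to 353.8 and from 56.7% to 66.1% of entries empty; its between-array step is unknown, being not given in the sources used here.

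Spots marked as outliers were left out, log2 signals of a probe's spots were averaged, and the 75th percentile of the scan was subtracted. A probe was kept if at least 0.5 of its spots were well above background on at least 4 of 10 scans (17455 probes), and the kept probe with the highest mean stood for its gene. Symbols were updated through RefSeq GRCm38.p6. Groups were compared with limma 3.58.1 under R 4.3.3 (degrees of freedom: residual 3, prior 5.26; Benjamini-Hochberg over 13677 genes; threshold 0.05), and the fit was tested on simulated data. The number of arrays limits the precision.

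The CSF genes and all gene lists were chosen with earlier results of these data known. Every CSF probe is named; of each list, up to 4 called genes in order of p, or the gene with the smallest p where none was called, and for likeness the 3 closest genes per kept probe. A gene that this rule names is not reported here. Il3ra, Jak2, Stat5a, Itgam, Fcer1g, Elane and the undetected genes named fall outside that rule and were chosen after their values were seen. Alternatives covered scaling, background, filters, probe choice, scan days, blocks and left-out arrays or scans.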

Additional observations from a re-analysis of the deposited data

Results flagged for a closer look

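For Csf2rb probe A_52_P52618, mimic replicate 3 stood apart from the other 5 mimic scans, at a normalised log2 signal of 1.56 where the next lowest was 1.76 and the highest 1.86. It was the only such case in 28 groups of scans checked. Chance gives about 1 in 20 groups, so 1 case in 28 is no more than chance gives. Replicate 6, the other scan of the same mimic array 3, read 1.78. The replicate 3 value is still above every scramble scan.

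The marked Csf2 spot of mimic array 1 lies outside the measurements used above. It read 8922 on mimic replicate 1 and 8671 on mimic replicate 4, whereas no scramble spot of the probe exceeded 57.9.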

How the results depend on the processing

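Over all genes the counts called were 802 higher and 530 lower. They were 2517 and 1637 with all 10 scans as samples, 483 and 278 with array-median scaling, 205 and 202 with no filter on dim probes, 457 and 353 with the slide row as a block, and 504 higher with scans of day 2 only. For the 4 lists around the CSF receptors, with 5 higher and 1 lower, the counts were 2 and 3 with the percentile over probes well above background, 9 and 8 with 10 scans as samples, 2 and 3 with normexp, and 0 higher with no filter. They were 2 higher with array-median scaling, with day 2 only and with the slide row as a block, and 3 higher with marked spots kept, an alternative chosen after seeing the data. The lower count was 2 with all kept probes of a gene averaged and with probes well above background on all 10 scans, 3 with quantile normalization and with the series matrix, and 4 with scan date as a block. Leaving out 1 array or scan gave 345 to 2460 higher and 275 to 1211 lower genes, and 1 to 13 higher and 1 to 7 lower list genes; the highest counts all came without scramble array 1.

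Replicate numbers did not pair the samples: the correlations of same-numbered deviations were 0.19, −0.05, −0.28 and 0.13. Each scramble scan correlated best with a mimic scan of another number, and that mimic scan was always of the same scan day. With the replicate number as a block over the 10 scans, 1417 genes were higher and 919 lower, and 8 and 5 of the list genes.

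No called list gene changed sign in any alternative that gave it a value. Low signal over background limits Csf2, Csf3, Csf2ra and the scramble values of Csf2rb and Csf2rb2.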
